A study of Mus musculus with 14 samples.

Results

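The proteasome genes of these tumours were taken as all genes whose array symbol begins with Psma, Psmb, Psmc, Psmd, Psme, Psmf or Psmg followed by a digit. The rule used the symbol only, and where a gene had several probesets the brightest on average stood for it. It found 48 genes, of 12393 genes named by the array, and these 48 genes had 85 probesets. Of the 48 genes, 46 encode proteasome subunits, activators, an inhibitor or assembly factors. The remaining genes, Psmc3ip and Psme3ip1, share the prefix but encode none of these.

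The proteasome is the protease complex that degrades ubiquitin-tagged proteins in the cytosol and nucleus. Its core particle is a barrel in which outer rings of alpha subunits control entry and inner rings of beta subunits cut the chain, and regulatory particles at its ends bind, deubiquitinate and unfold the substrate. Interferon-exposed cells and leukocytes replace the cutting subunits beta5 (Psmb5), beta1 (Psmb6) and beta2 (Psmb7) by Psmb8, Psmb9 and Psmb10, which forms the immunoproteasome that supplies peptides for MHC class I.

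Total RNA of mouse tumours was measured on Affymetrix arrays, 7 from control mice and 7 from mice deficient in HIF-2alpha, an oxygen-regulated transcription factor whose gene is Epas1. In the labels the second group is named both a knockdown and deficient. All mice of both groups had a mixed 129 SvJ/C57Bl6 background. The mice's age, the tumours' organ, the oncogenic allele and the allele, promoter or cell type behind the loss of HIF-2alpha are not given in the sources used here.

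Levels are log2 GCRMA values, on which a difference of 1 is a factor of 2. Some limits of the series touch the results. Group values are means ± SD over 7 arrays. Epas1 itself was 5.84 ± 0.69 in controls and 5.65 ± 0.51 in deficient tumours. Since the allele is not given, it is not known whether its probeset would read the loss, and it does not check the labels. The description of each array opens with digits that other arrays share. Controls 1 and 4 share them, and so do the other 5 controls. Deficient arrays 1 and 5, 3 and 6, and 4 and 7 form such pairs, and deficient array 2 stands alone. What the digits mark is not given. A second number in the descriptions does not overlap between the groups, and anything it stands for cannot be told apart from the group. The labels do not say whether arrays with shared digits came from separate animals, so that p-values measure only the spread between these arrays. Type 2 alveolar markers had a mean level of 13.5 to 13.7 in controls and 13.5 to 13.8 in deficient tumours. None of 4 liver markers passed the filter on low values. Albumin (Alb) was above 4 in 3 deficient arrays and 0 controls, with maxima of 7.78 and 2.93, and Apoa2 in 2 deficient arrays. The mean level of the liver markers was 3.40, 4.12 and 3.47 in deficient arrays 2, 3 and 6 and 2.43 to 2.62 in controls.

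The 250 bases before the start sites are shown for the cutting subunits that have an entry in RefSeq's promoter table (GRCm38.p6), since HIF-2alpha binds DNA and the immunoproteasome genes answer to interferon. They are written 5′ to 3′ on the gene's strand, in lower case, and capitals mark matches to a searched motif.
Psmb5 promoter (chr14:54617996-54618245, - strand): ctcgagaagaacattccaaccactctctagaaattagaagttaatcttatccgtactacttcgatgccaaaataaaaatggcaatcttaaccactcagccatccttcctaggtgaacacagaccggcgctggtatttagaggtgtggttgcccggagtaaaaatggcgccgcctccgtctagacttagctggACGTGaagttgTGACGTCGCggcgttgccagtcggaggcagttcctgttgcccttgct
Psmb6 promoter (chr11:70525107-70525356, + strand): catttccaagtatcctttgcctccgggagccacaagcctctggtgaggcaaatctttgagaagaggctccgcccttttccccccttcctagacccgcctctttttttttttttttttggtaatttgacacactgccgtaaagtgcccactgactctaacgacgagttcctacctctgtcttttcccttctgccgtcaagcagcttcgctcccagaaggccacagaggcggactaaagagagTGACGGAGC
Psmb8 promoter (chr17:34197945-34198194, + strand): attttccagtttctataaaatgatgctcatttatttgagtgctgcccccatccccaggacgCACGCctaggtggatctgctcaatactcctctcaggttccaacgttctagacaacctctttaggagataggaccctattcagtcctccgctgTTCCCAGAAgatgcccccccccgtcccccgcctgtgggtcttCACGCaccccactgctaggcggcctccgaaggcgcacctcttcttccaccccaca
Psmb9 promoter (chr17:34187331-34187580, - strand): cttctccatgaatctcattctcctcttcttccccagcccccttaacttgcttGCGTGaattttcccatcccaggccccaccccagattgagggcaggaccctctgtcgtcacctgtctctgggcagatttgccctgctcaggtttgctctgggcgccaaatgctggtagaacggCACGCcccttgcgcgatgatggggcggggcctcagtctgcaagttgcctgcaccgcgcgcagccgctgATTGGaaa
Psmb10 promoter (chr8:105938393-105938642, - strand): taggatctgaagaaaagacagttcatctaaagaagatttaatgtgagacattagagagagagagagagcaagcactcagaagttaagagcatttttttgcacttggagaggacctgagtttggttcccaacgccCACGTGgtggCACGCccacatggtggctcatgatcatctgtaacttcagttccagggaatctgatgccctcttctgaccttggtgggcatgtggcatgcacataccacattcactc
The motifs were searched on both strands. They were the cores of the hypoxia response element, ACGTG and GCGTG, the antioxidant response core TGACNNNGC, the interferon-stimulated response core (GAAA, any 2 bases, GAAA), the palindromic STAT motif TTCNNNGAA and the CCAAT box. In the Psmb10 window the capitals CACGTG hold ACGTG on both strands, overlapping each other, and CACGC is the reverse complement of GCGTG. The Psmb5 window held ACGTG at -58 to -54, counted from the start, and TGACNNNGC, and that of Psmb6 held TGACNNNGC. The Psmb8 window held the STAT motif at -97 to -89 and 2 reverse complements of GCGTG, and the Psmb9 window held GCGTG on each strand and a reversed CCAAT box.

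Over the 43 windows of the 40 proteasome genes in the table, ACGTG was present in 20.9% and GCGTG in 41.9%, against 16.6% and 28.2% of all 32851 windows of this length. Either hypoxia core was present in 53.5% of proteasome windows and in 38.6% of all. TGACNNNGC was found in 11.6% against 10.2%, the interferon-stimulated core in 6.98% against 2.98%, TTCNNNGAA in 4.65% against 7.02% and CCAAT in 34.9% against 33.8%. These are matches of letters, not sites of binding.

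No proteasome gene differed between deficient and control tumours beyond the spread of the arrays. In 47 of the 48 genes the probeset passed the filter (a value above 4 in at least 7 arrays). The exception was Psma8, the testis form of an alpha subunit, whose values lay between 2.16 and 2.33. With limma and Benjamini-Hochberg adjustment over all 12701 probesets tested, 0 of 47 genes had an adjusted p under 0.05, against 5 probesets or 0.0394% of all. At an unadjusted p under 0.05 there were 2 of 47, against 14.7% of all probesets. The gene higher in deficient tumours was Psmb7 (8.09% of all probesets were higher by this measure), and the gene lower was Psmc3ip (6.57% of all were lower). The groups of 7 arrays failed to overlap in 0 proteasome genes and in 0.496% of all probesets. The count of called proteasome genes was also 0 in the other limma fits tried, except 1 (Psmb7) with array weights, under which 1900 probesets were called in all.

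The differences were small in both directions. Deficient tumours were higher in 25 genes and lower in 22, with a median difference of 0.02, and over all probesets tested 52.6% were higher with a median of 0.02. After quantile normalisation of the arrays the split was 19 higher and 28 lower, with a changed sign for Psmb5, Psmc4, Psmc6, Psmd1, Psmd12 and Psmd14, all with small differences (-0.02 to 0.03). The median size of the difference was 0.10 in the proteasome genes and 0.18 over all, and the median SE was 0.13 and 0.18. The proteasome genes also had higher levels, with a median of 9.76 against 7.86. With 1 probeset per gene, Psmg4 had the largest difference of the subunits, activators and assembly factors in this fit, 0.31 or 1.24-fold. It was 0.12 with array weights, below Psmg1 (0.34), Psma5 (0.33) and Psmb7 (0.33). Other probesets of Psmc6, Psmf1, Psmb1 and Psmd6 had larger differences, given below. The 95% interval lay between -1 and 1 for 46 of the 47 genes, so that a change of that size was outside the interval for nearly all of them. These are tumour extracts, in which fewer cells of a type and less RNA per cell cannot be told apart.

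**Figure D1:**
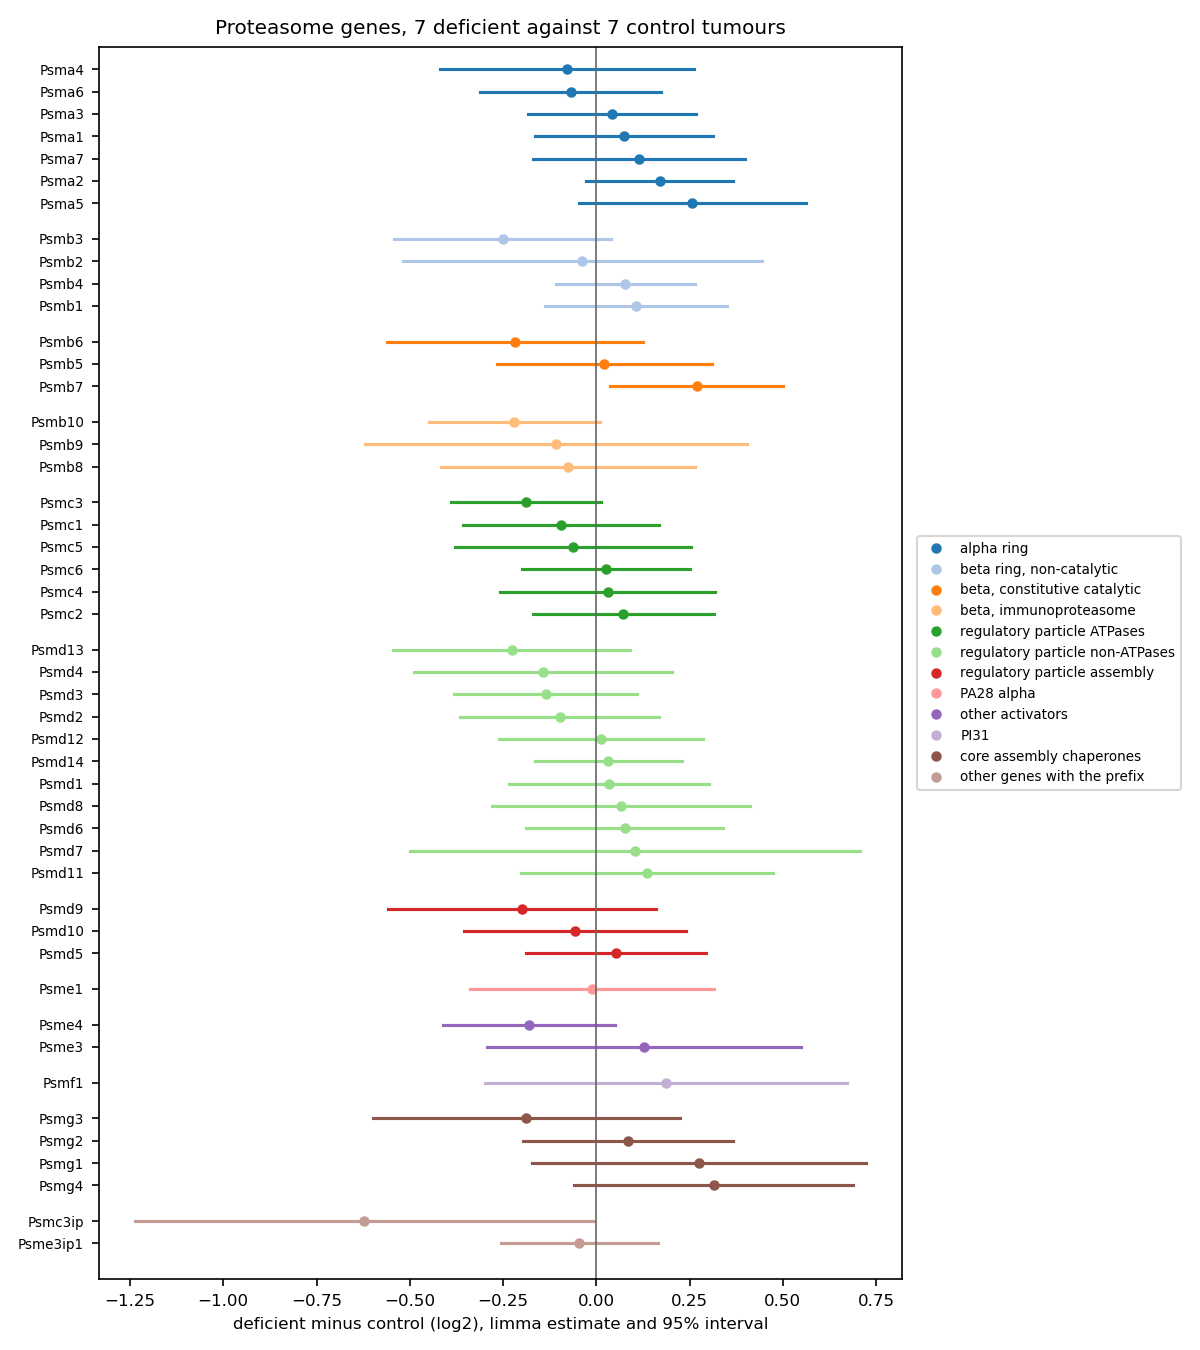
Difference between deficient and control tumours (log2, x axis) for each of the 47 tested proteasome genes (rows, coloured by role), with limma's 95% interval as a bar. The points lie between -0.62 (Psmc3ip) and 0.31 (Psmg4), and the intervals of only Psmb7 and Psmc3ip miss 0.

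The alpha subunits form the gated outer rings. Of the 7 tested, 5 were higher and 2 lower in deficient tumours, with a median of 0.07, and 0 passed the test. Psma5 ranged from 9.15 over a median of 9.32 to 9.79 in controls and from 9.33 over 9.61 to 10.04 in deficient tumours. Its difference was 0.26 (SE 0.14, limma adjusted p = 0.418), and 2 of 7 deficient arrays lay above every control. For Psma2 the controls ran from 10.98 over 11.08 to 11.26 and the deficient arrays from 11.01 over 11.23 to 11.53, a difference of 0.17 (SE 0.09, limma adjusted p = 0.407). The groups overlapped for both. Psma7 differed by 0.11 and Psma6, the alpha subunit with the brightest probeset, by -0.07.

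Of the beta subunits that do not cut, Psmb1 and Psmb4 had positive differences and Psmb2 and Psmb3 negative ones, with a median of 0.02 (-0.01 after quantile normalisation) and 0 of 4 past the test. Psmb3 ran from 11.75 over 12.07 to 12.31 in controls and from 11.25 over 11.90 to 12.08 in deficient tumours. The difference was -0.25 (SE 0.14, limma adjusted p = 0.408), with 2 deficient arrays below every control. Psmb1 differed by 0.11 and Psmb4 by 0.08.

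The constitutive cutting subunits did not move together. Psmb7, the trypsin-like subunit, ranged from 10.11 over a median of 10.18 to 10.59 in controls and from 10.32 over 10.50 to 10.83 in deficient tumours. Of the deficient arrays, 3 lay above every control and none below, and control 4 alone reached into the upper part of the deficient range. The means were 10.26 ± 0.17 and 10.52 ± 0.19, 1.21-fold apart (log2 difference 0.27, SE 0.11, limma adjusted p = 0.276). Of the probesets that stood for the proteasome genes, that of Psmb7 had the smallest p, and it did not pass. Another probeset of Psmc6, given below, had a smaller p.

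Psmb5, the chymotrypsin-like subunit, ran from 10.60 over 10.77 to 11.06 in controls and from 10.28 over 10.80 to 11.22 in deficient tumours, which span the control range. The means were 10.78 ± 0.14 and 10.80 ± 0.31, a difference of 0.02 (SE 0.13, limma adjusted p = 0.962) that was -0.01 after quantile normalisation. Psmb6, the caspase-like subunit, ran from 11.25 over 11.50 to 11.84 in controls and from 10.89 over 11.27 to 12.00 in deficient tumours. Its means were 11.50 ± 0.22 and 11.28 ± 0.37, a difference of -0.22 (SE 0.16, limma adjusted p = 0.566), with 3 deficient arrays below and 1 above every control.

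All 3 immunoproteasome subunits had lower means in deficient tumours, with a median of -0.11, and 0 of 3 passed the test. That median was -0.21 without control 4, -0.25 without deficient array 7, -0.04 without deficient array 3 and -0.02 with arrays averaged over opening digits, and with array weights the difference of Psmb8 was 0.07. Psmb10, which takes the place of Psmb7, was 9.80, 9.86, 9.97, 9.74, 9.80, 9.94 and 9.97 in controls 1 to 7 and 9.48, 9.58, 9.51, 9.85, 9.52, 9.53 and 10.07 in deficient arrays 1 to 7. Deficient arrays 1, 2, 3, 5 and 6 lay below every control, array 4 lay inside the control range and array 7 above it. The difference was -0.22 (SE 0.11, limma adjusted p = 0.361).

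Psmb8, the substitute for Psmb5, was nearly constant in controls and split in deficient tumours. It was 9.35, 9.34, 9.42, 9.43, 9.54, 9.40 and 9.39 in controls 1 to 7 and 8.71, 9.75, 9.11, 9.74, 9.08, 9.19 and 9.76 in deficient arrays 1 to 7. No deficient array fell inside the control range: 4 lay below it and 3 above. The means therefore hardly differed, at 9.41 ± 0.065 and 9.33 ± 0.42, with a difference of -0.08 (SE 0.16, 95% interval -0.42 to 0.26, limma adjusted p = 0.864). Psmb8 was the only proteasome gene with all 7 deficient arrays outside the control range on both sides, a pattern that 0.795% of all tested probesets had. Arrays that share opening digits lay on the same side, with 1 and 5 and 3 and 6 below, and 2 and 4 and 7 above.

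Psmb9, the substitute for Psmb6, ran from 7.19 over 7.80 to 8.42 in controls and from 6.98 over 7.79 to 8.54 in deficient tumours, so that the groups covered almost the same range. The difference was -0.11 (SE 0.24, limma adjusted p = 0.873). Its low arrays shared opening digits in both groups, with a mean of 7.32 in controls 1 and 4 against 7.99 in the other 5. In deficient tumours it was 7.04 in arrays 3 and 6, 7.70 in 1 and 5, 7.84 in array 2 and 8.25 in 4 and 7. The meaning of those digits was not given, and their part in the result was not tested.

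**Figure D2:**
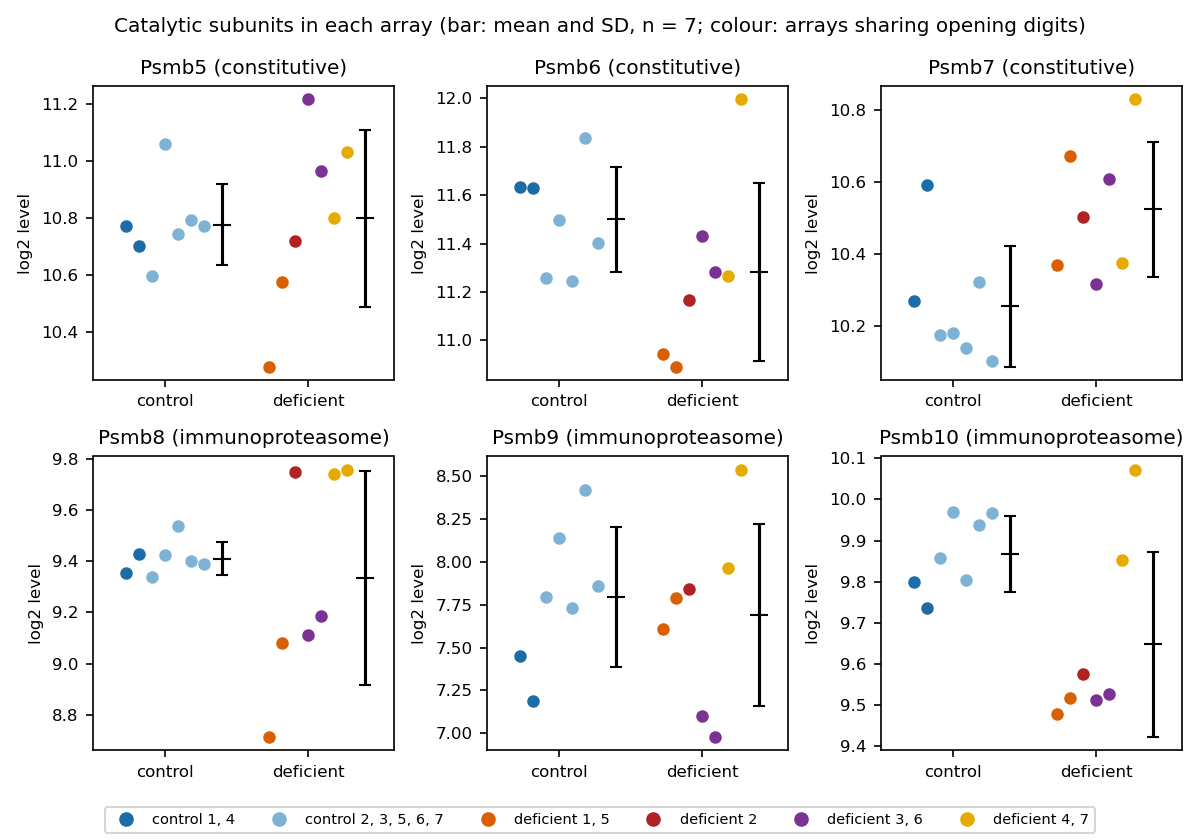
Log2 level (y axis) of the constitutive subunits (upper row) and the immunoproteasome subunits (lower row) in each control and deficient array, arrays that share opening digits having 1 colour, with mean and SD (n = 7) as bars. The deficient arrays of Psmb8 lie above or below the 7 controls, which sit between 9.34 and 9.54, and 5 deficient arrays of Psmb10 lie below every control.

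Leukocyte markers also varied between these arrays. Of 6 leukocyte markers (such as Ptprc and Laptm5) 5 were lower in deficient tumours and 0 were called, with a mean level per array of 10.5 to 11.4 in controls and 10.3 to 11.2 in deficient tumours, and no marker was near the floor. In deficient arrays 1 to 7 the leukocyte level was 11.1, 10.5, 10.3, 11.1, 11.2, 10.6 and 11.0. Arrays 3 and 6, where Psmb9 was lowest, were thus among the 3 lowest, but array 2 was as low with Psmb9 at 7.84 and Psmb8 above every control. In controls 1 to 7 it was 11.0, 11.2, 11.4, 10.5, 11.4, 11.1 and 11.1, lowest in control 4, the lowest control for Psmb9, and highest in control 5, where Psmb9 was 7.73. Of 5 tested T and NK cell markers 4 were lower, with a mean level of the 5 of 5.21 to 6.96 in controls and 4.93 to 6.35 in deficient tumours, while Cd8a and Cd4 never exceeded 4. Of 7 macrophage markers 6 were lower, with levels of 8.36 to 9.95 and 8.14 to 9.45. Other immune lists were mixed. Both tested neutrophil markers (2 of 2), S100a8 and S100a9, were higher, with a median of 0.28 (limma adjusted p = 0.815 and 0.844). Csf3r and Cxcr2 did not pass the filter and had lower means in deficient tumours. Of 3 tested B and plasma cell markers 2 were higher and 1 lower, with a median of 0.32. The lower one was Jchain, at -0.75 (SE 0.33, limma adjusted p = 0.322). The part of these cell types in the immunoproteasome values was not tested.

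Within an array, the log2 level of an immunoproteasome subunit less that of the subunit it replaces shows whether they differed unequally between the groups. It is not a ratio of amounts, since probesets differ in brightness. There were 3 pairs, tested two-sided by exact permutation of the arrays over 3432 splits, which cannot give a p below 0.000583, with p adjusted over the 3.

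With each array taken as 1 sample, the Psmb10 and Psmb7 pair differed between the groups. The value was -0.47, -0.32, -0.21, -0.86, -0.34, -0.39 and -0.14 in controls 1 to 7 and -0.89, -0.93, -0.81, -0.52, -1.15, -1.08 and -0.76 in deficient arrays 1 to 7. All 7 deficient arrays lay below the control mean, and 4 lay below every control. The means were -0.39 ± 0.23 and -0.88 ± 0.21, a difference of -0.49 (SE 0.12, 0.713-fold, exact permutation p = 0.00291, adjusted p = 0.00874). Neither Psmb10 nor Psmb7 passed on its own.

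The call treats each array as 1 sample. By opening digits, the pair had means of -0.66 in controls 1 and 4 and -0.28 in the other 5 controls. In deficient arrays the means were -1.02 (1 and 5), -0.93 (2), -0.94 (3 and 6) and -0.64 (4 and 7). Controls 1 and 4 thus lay at the level of deficient arrays 4 and 7. With arrays averaged over their opening digits, which left 2 control and 4 deficient values, the difference was -0.41, but no p below 0.0667 is possible with so few values and the test says nothing there. Without the other 5 controls, which leaves controls 1 and 4 at -0.47 and -0.86, the difference was -0.21 (exact permutation p = 0.278, or 0.417 adjusted over the 3 pairs). The smallest possible unadjusted p was 0.0278 there, and given the p-values of the other pairs no adjusted p under 0.05 was possible. Leaving out any other arrays that share digits, or any 1 array, kept the adjusted p under 0.05.

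The other pairs did not differ beyond the spread. Psmb8 less Psmb5 was -1.37 ± 0.14 in controls (-1.64 to -1.21) and -1.47 ± 0.40 in deficient tumours (-2.11 to -0.97). The difference was -0.10 (SE 0.16, exact permutation p = 0.570, adjusted p = 0.599), with 4 of 7 deficient arrays below the control mean. Psmb9 less Psmb6 was -3.70 ± 0.43 in controls (-4.44 to -3.36) and -3.59 ± 0.51 in deficient tumours (-4.33 to -3.10), a difference of 0.11 (SE 0.25, exact permutation p = 0.599, adjusted p = 0.599). In this pair the arrays formed separate levels by opening digits, with means of -4.31 in controls 1 and 4 and -4.32 in deficient arrays 3 and 6. The other 5 controls were at -3.46, and the other deficient arrays at -3.22 (1 and 5), -3.32 (2) and -3.38 (4 and 7).

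**Figure D3:**
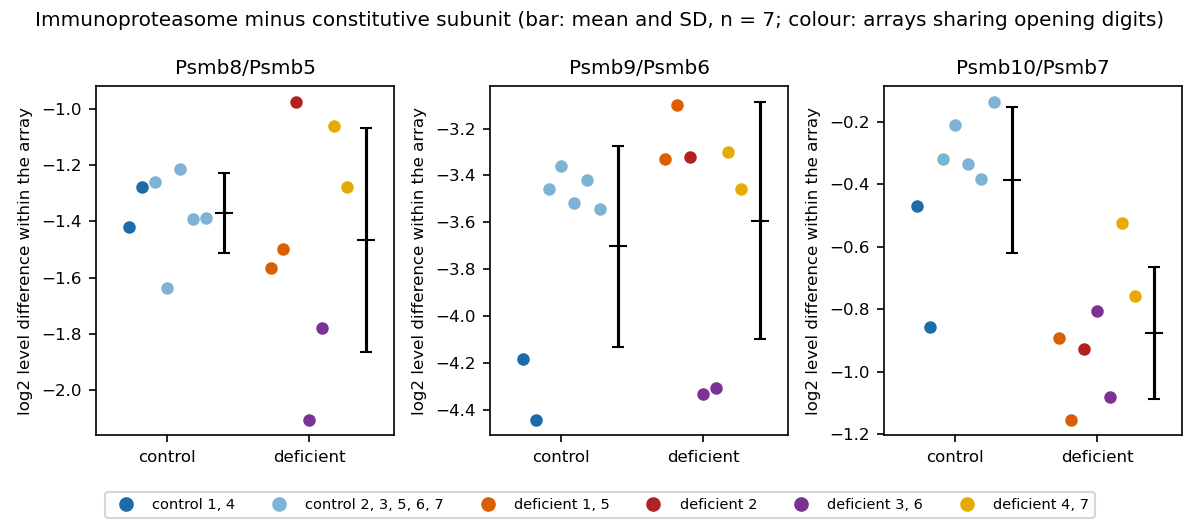
Log2 level of each immunoproteasome subunit less that of its constitutive counterpart (y axis) in each control and deficient array, arrays that share opening digits having 1 colour, with mean and SD (n = 7) as bars. For Psmb10 and Psmb7 the deficient arrays lie between -1.15 and -0.52 and the controls between -0.86 and -0.14, and for Psmb9 and Psmb6 controls 1 and 4 and deficient arrays 3 and 6 sit apart, with means of -4.31 and -4.32.

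Of the activators, which open the core in place of the regulatory particle, Psme1 (PA28 alpha, an interferon-induced partner of the immunoproteasome) had nearly equal means, 11.65 ± 0.18 and 11.64 ± 0.36. The controls ran from 11.47 over 11.60 to 11.94 and the deficient arrays from 11.08 over 11.68 to 12.21, on both sides of the controls. The difference was -0.01 (SE 0.15, limma adjusted p = 0.982), and 0.002 when arrays were scaled to a common median. Psme4 (PA200) differed by -0.18 (SE 0.11, limma adjusted p = 0.451) and Psme3 (PA28 gamma, nuclear) by 0.13 (SE 0.20, limma adjusted p = 0.802). Psmf1, the core inhibitor PI31, ran from 5.97 over 6.35 to 6.91 in controls and from 5.91 over 6.51 to 7.56 in deficient tumours, a difference of 0.19 (SE 0.23, limma adjusted p = 0.738). The probeset shared by Psme2 and another gene was outside the rule, and no value is given for it.

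No subunit of the regulatory particle passed the test. Of its 6 ATPases, which unfold the substrate, 3 were higher and 3 lower with a median of -0.02, and 1 higher and 5 lower after quantile normalisation. Psmc3 ran from 10.85 over 11.04 to 11.31 in controls and from 10.69 over 10.89 to 11.05 in deficient tumours, with 2 deficient arrays below every control. Its difference was -0.19 (SE 0.09, limma adjusted p = 0.374). Psmc1 differed by -0.10, Psmc2 by 0.07 and Psmc4, the ATPase with the brightest probeset, by 0.03.

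Of the 11 other subunits of the regulatory particle, 7 were higher and 4 lower with a median of 0.03, and 4 higher and 7 lower after quantile normalisation. Psmd13, a structural lid subunit, ran from 7.91 over 8.36 to 8.42 in controls and from 7.63 over 7.94 to 8.57 in deficient tumours, with 3 deficient arrays below and 1 above every control. Its difference was -0.23 (SE 0.15, limma adjusted p = 0.507). The ubiquitin receptor Psmd4 differed by -0.14, the lid subunit Psmd3 by -0.14 and the lid subunit Psmd6 by 0.08. Psmd14, the deubiquitinase of the lid, had a difference of 0.03, with 2 deficient arrays below and 3 above the narrow control range of 10.07 to 10.28.

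Of the 4 chaperones that build the core, 3 were higher and 1 lower, with a median of 0.18 and 0 past the test. Psmg4 ran from 4.88 over 4.99 to 5.19 in controls and from 4.90 over 5.12 to 6.04 in deficient tumours, where 3 arrays lay above every control. The difference was 0.31 (SE 0.17, limma adjusted p = 0.420), at a level close to the floor. Psmg1 differed by 0.28 (SE 0.21), Psmg2 by 0.09 and Psmg3 by -0.19. Of the 3 chaperones of the regulatory particle, Psmd9 differed by -0.20 (SE 0.17, limma adjusted p = 0.624), Psmd10 (gankyrin) by -0.06 and Psmd5 by 0.05.

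Neither of the remaining genes with the prefix passed the test. Psmc3ip, a meiotic recombination factor, ran from 3.86 over 4.41 to 6.21 in controls and from 3.51 over 4.02 to 4.20 in deficient tumours, with control 6 far above the rest. The difference was -0.62 (SE 0.29, limma adjusted p = 0.334), it was -0.35 without control 6, and most values lay near the floor. Psme3ip1, which binds PA28 gamma, differed by -0.05 (SE 0.10, limma adjusted p = 0.866).

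Several genes had other probesets above the filter. Of 17 genes with at least 2 tested probesets, 11 had the same sign in all. The sign turned in another probeset for Psma5 (-0.03), Psma7 (-0.06), Psmc2 (-0.03), Psmc4 (-0.04), Psmd4 (0.03) and Psme4 (0.09), so that the direction of these genes depended on the probeset. Size depended on it too. The largest differences in other probesets were 0.53 (1.44-fold) for Psmc6, 0.45 for Psmf1, 0.44 for Psmb1 and 0.33 for Psmd6. The brightest probesets of these genes had 0.03, 0.19, 0.11 and 0.08. By limma the unadjusted p was 0.0243 for that probeset of Psmc6 and 0.0350 for that of Psmb1, against 0.0258 for Psmb7. None passed (limma adjusted p = 0.270 for Psmc6). Each of the 6 cutting subunits was read by 1 tested probeset.

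The spread between arrays was wider in deficient tumours for 30 of the 47 genes, and for 69.4% of all tested probesets. The SD of deficient arrays over that of controls had a median of 1.42 in the proteasome genes and 1.31 over all probesets. Psmb8 had the largest such ratio of the proteasome genes, 6.40 (SD 0.065 and 0.42), and 0.465% of all probesets had one as large. The ratio was 2.43 for Psmb10 and 2.20 for Psmb5. Psmg4 had SDs of 0.12 and 0.45 and Psmd8, a lid subunit, 0.14 and 0.41.

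**Figure D4:**
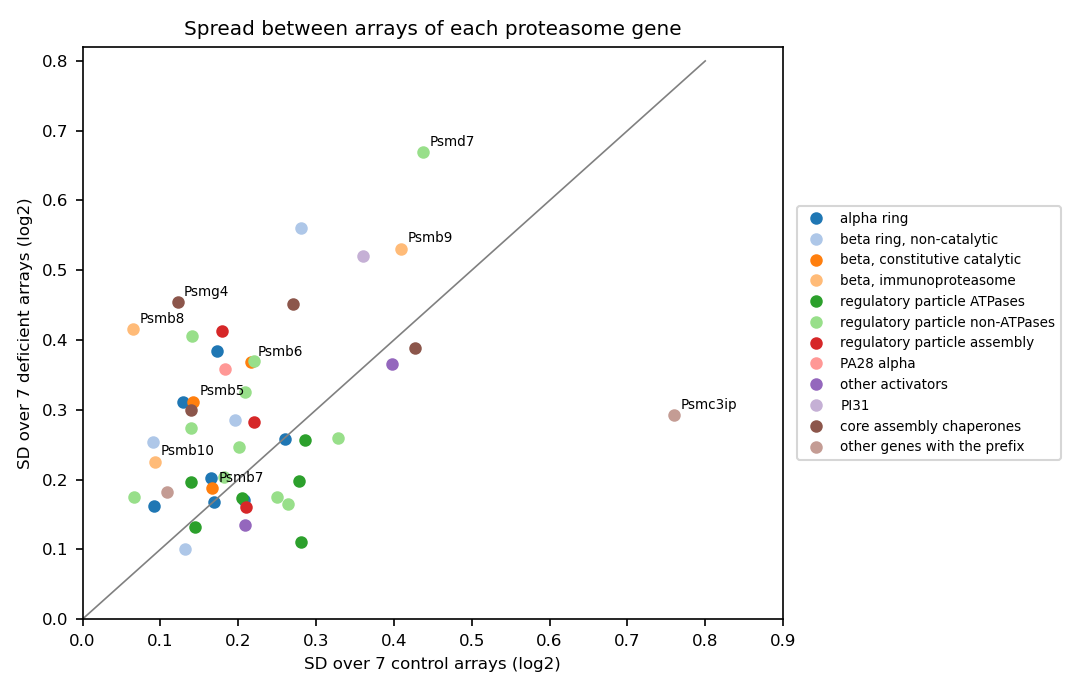
SD over the 7 control arrays (x axis, log2) against SD over the 7 deficient arrays (y axis, log2) for each of the 47 tested proteasome genes, coloured by role, with the line of equal SD. Of these, 30 points lie above the line, and Psmb8 lies farthest from it for its control SD, at 0.065 and 0.42.

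In both groups a few arrays held the extremes of many proteasome genes. Control 4 held the highest control value of 21 of the 47 genes and control 6 the lowest of 19. Among deficient arrays, array 7 held the highest value of 19 of the 47 genes and array 3 of 13, while array 1 held the lowest value of 18 and array 5 of 11. As a mean deviation from each gene's own mean over the 14 arrays, array 7 stood at 0.43 for the constitutive and 0.50 for the immunoproteasome subunits, and array 1 at -0.33 and -0.36. Array 3 differed between the classes, at 0.13 for the constitutive and -0.38 for the immunoproteasome subunits, and array 6 at 0.10 and -0.39. In controls these deviations lay between -0.18 and 0.13 for the constitutive and between -0.17 and 0.29 for the immunoproteasome subunits. These deviations describe the arrays and were not tested.

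Deficient arrays 3 and 6 also stood apart in markers of other cell types. The mean level of 6 endothelial markers was 4.81 and 5.11 in them, against 6.65 to 8.20 in the other deficient arrays and 6.92 to 8.25 in controls. That of 5 type 1 alveolar markers was 9.34 and 9.63, against 10.7 to 11.0 and 10.6 to 11.2. Between the groups, 6 of 6 endothelial, 4 of 5 type 1 alveolar, 4 of 5 club cell and 3 of 3 tested ciliated cell markers had lower means in deficient tumours. None was called. By limma, 3 of 3 tested ciliated and 3 of 5 club cell markers had an unadjusted p under 0.05. So did 1 of 6 endothelial and 1 of 5 type 1 alveolar markers, against 14.7% of all probesets. The median difference was -2.32 for the ciliated and -1.64 for the club cell markers. The ciliated markers had mean levels of 5.43 to 9.53 in controls and 3.66 to 7.09 in deficient tumours. The part of these cell types in the proteasome values was not tested.

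**Figure D5:**
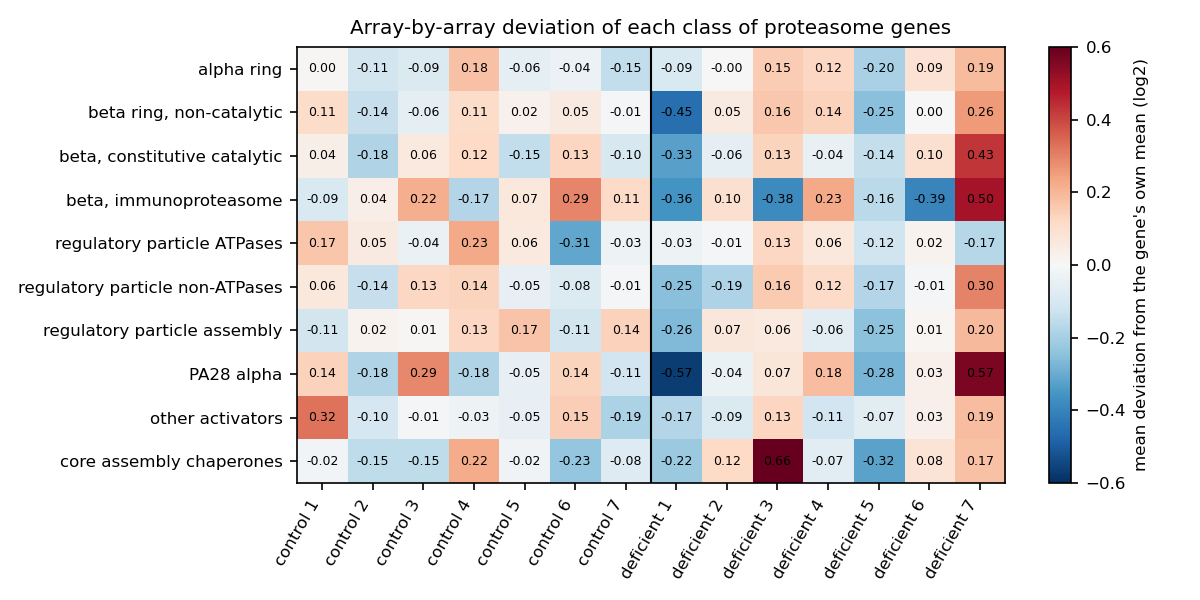
Mean deviation of each role class (rows) from its genes' own means over the 14 arrays (log2, colour and printed value), by array (columns, controls left of the line). Deficient array 7 is high and array 1 low in most classes, and deficient arrays 3 and 6 are low for the immunoproteasome subunits at -0.38 and -0.39.

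Genes that work beside the proteasome gave the same picture of few differences past the spread. Of 12 tested partners (20 listed), which assemble the complex or carry ubiquitin to it, 5 were higher and 7 lower, with a median of -0.03. Of these, 0 were called and 0 had an unadjusted p under 0.05 by limma, against 14.7% of all probesets. The shuttle factor Rad23b ran from 7.98 over 8.40 to 8.50 in controls and from 8.25 over 8.52 to 8.88 in deficient tumours, a difference of 0.21 (SE 0.12, limma adjusted p = 0.428), with 5 deficient arrays above every control. The deubiquitinase Uchl5 differed by 0.21, the shuttle factor Ubqln1 by -0.19 and the small lid subunit Sem1 by 0.05.

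Of 10 tested genes of MHC class I peptide loading (11 listed), 4 were higher and 6 lower, with a median of -0.04. Of these, 0 were called and 2 had an unadjusted p under 0.05 by limma, against 14.7% of all probesets. The chaperone calnexin (Canx) ran from 11.58 over 11.67 to 11.72 in controls and from 11.79 over 11.87 to 12.02 in deficient tumours, so that all 7 deficient arrays lay above every control. Over all tested probesets, 0.496% had groups that did not overlap. The difference of Canx was 0.23 (SE 0.08, limma adjusted p = 0.195) and did not pass. Tap2, part of the transporter that takes proteasome products into the endoplasmic reticulum, differed by -0.37 (SE 0.16, limma adjusted p = 0.319), with deficient values from 4.92 over 5.50 to 5.72 and controls from 5.44 over 5.59 to 6.28. The loading factor Tapbp differed by -0.19 and the class I light chain B2m by -0.03.

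Of 13 tested interferon response genes (21 listed), 5 were higher and 8 lower, with a median of -0.10. Of these, 0 were called and 1 had an unadjusted p under 0.05 by limma, against 14.7% of all probesets. The GTPase Iigp1 ran from 6.24 over 6.94 to 7.70 in controls and from 6.67 over 7.54 to 8.60 in deficient tumours, a difference of 0.66 (SE 0.30, limma adjusted p = 0.327). Ifit3 differed by -0.95 (SE 0.56) and Ifit1 by -0.72 (SE 0.41), both antiviral proteins, and the GTPase Ifi47 by 0.19. The groups overlapped in each of these 4 genes.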

How the data were processed

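Log2 probeset levels were deposited by the authors, made with GCRMA, per the submitters' processing notes, which give no version. As a method, GCRMA models background by probe sequence, quantile-normalises the arrays and combines the probes of a probeset. Levels near 4 and below approach the floor that GCRMA sets, and differences there are compressed. The number of arrays, 7 in each group, limits the precision. Probesets of the array were tied to 1 gene (20380), several (691) or none (1555) by the platform annotation. RefSeq's gene table (GRCm38.p6) held all 48 gene IDs. The labels name no genome build, so that table served for names, and coordinates are given only for RefSeq's own promoter windows.

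The 12701 probesets with a value above 4 in at least 7 of 14 arrays, array controls left out, were fitted with limma 3.58.1 in R 4.3.3 (lmFit, eBayes, 1 group term, two-sided, Benjamini-Hochberg over all of them, threshold 0.05). Differences are deficient minus control. Subunit pairs were compared by exact permutation. The proteasome genes, lists and pairs were chosen with earlier results of these data known. Genes named are the cutting subunits, activators and inhibitor, and in each other class or list the 3 smallest p and the highest level. Psma8, Psmb2, Psmc6, Psmd1, Psmd8, Psmd12 and Psmd14 were named after their values were seen. Alternatives covered the filter, normalisation, variance model, array weights, opening digits, replicate numbers, probesets and arrays left out. The scripts were tested on simulated data.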

Additional observations from a re-analysis of the deposited data

Results flagged for a closer look

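Among 100 groups of 7 arrays examined for the genes and subunit pairs named, 9 had 1 array far from the other 6 (a gap beyond Dixon's critical value), where chance alone gives about 5%. Control 3 was high for Psmb5, at 11.06 against 10.60 to 10.79 in the other controls, and control 4 for Psma7, at 10.83 against 10.43 to 10.59. Control 6 was low for Psmc2, at 9.71 against 10.04 to 10.28, and high for Psmc3ip, at 6.21 against 3.86 to 4.64. Control 4 was low for Rad23b, at 7.98 against 8.31 to 8.50. Deficient array 4 was high for Psmb4, at 11.65 against 11.35 to 11.45, and deficient array 1 for Psmc2, at 10.58 against 10.02 to 10.21. Deficient array 7 was high for Psmd3, at 7.51 against 6.88 to 7.13, and deficient array 3 was low for Tap2, at 4.92 against 5.39 to 5.72.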

How the results depend on the processing

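With 7 arrays a group the median SE of a proteasome gene was 0.13, which limits what these data can show. Of the 1056 alternative values of the 47 genes named, 1021 kept their direction and their side of the threshold, 32 changed sign, in 14 genes, and 3 passed it (Psmb7, Canx and Ifit3, with array weights). Proteasome genes called stayed at 0, except 1 with array weights, where Psmb7 was 0.33 (limma adjusted p = 0.0202). Probesets called in all, 5 as reported, were 0 without the filter, 9 with a trend and robust variance, 1900 with array weights, 0 with the opening digits as a random block (correlation 0.35), 2 with the replicate block, and 0 to 85 with 1 array left out, 85 without control 4. Random blocking gave 22 proteasome genes higher and 25 lower, with a smallest limma adjusted p of 0.989. With arrays that share opening digits left out, chosen after seeing the data, the split was 13 higher and 34 lower without the 5 controls other than 1 and 4, 27 and 20 without controls 1 and 4, 32 and 15 without deficient arrays 1 and 5, and 18 and 29 without 3 and 6. Probesets called were then 0, 119, 275 and 32, and proteasome genes 0 each time. With 1 array left out the class median ran from -0.25 to -0.04 for the immunoproteasome subunits and from -0.05 to 0.11 for the constitutive ones. For all members it ran from -0.02 to 0.04.

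The pair ratio Psmb10/Psmb7 did not pass with the replicate block (-0.489, permutation adjusted p = 0.0938). Averaged over opening digits (-0.41) it could not pass. Without those 5 controls (-0.21) it could not pass either, given the p-values of the other pairs. It passed in the other settings, from -0.57 to -0.44 with 1 array left out. The pair ratio Psmb9/Psmb6 turned to -0.134 without controls 1 and 4 and -0.0407 without deficient arrays 1 and 5 (-0.0131 to 0.233 with 1 array left out). The pair ratio Psmb8/Psmb5 turned to 0.0945 without deficient arrays 3 and 6 (-0.179 to 0.0101). The cause was not tested.

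Signs turned after quantile normalisation for Psmb5 (-0.00956) and Psmc4 (-0.00746), and after median scaling for Psme1 (0.00229). They turned with array weights for Psmb8 (0.0704), Psme1 (0.0909) and Psmc2 (-0.00459), and with the random block for Psmc4 (-0.00382). In another probeset Psme4 was 0.0921, Psma5 -0.0269, Psma7 -0.0586, Psmc2 -0.0349, Psmc4 -0.0433 and Psmd4 0.0269. With 1 array left out, Psmb5 ran from -0.0484 to 0.108, Psmb8 from -0.146 to 0.0280, Psmb9 from -0.249 to 0.0110, Psme1 from -0.107 to 0.0829, Psmc4 from -0.0533 to 0.0970, Psmd5 from -0.0121 to 0.0894, Psmd10 from -0.125 to 0.00643, Psme3ip1 from -0.0842 to 0.00131 and B2m from -0.0777 to 0.0638. Replicate numbers did not pair the samples: same-numbered arrays correlated at -0.23 to 0.22, 2 of 7 above 0.1, and 0 of 7 controls correlated best with their own number.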
